A study of Mus musculus with 12 samples.

Results

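Entry into and passage through mitosis was followed at the RNA level with 35 genes that encode mitotic kinases, cyclins, spindle and kinetochore proteins and the factors that transcribe or degrade them. The genes were chosen by name and function, with earlier results of these data known. All 35 were found among the 43629 genes of the count table. The 12 libraries were made from thymic pre-T cells of C57BL/6 mice, purified by FACS. The 2 control groups, DN3a and DN3b, came from mice with the genotype Zfp36l1fl/fl, Zfp36l2fl/fl and no Cre, and they are the stages of CD4- and CD8-lacking thymocytes just before and just after beta selection. The third group, DCKO, held DN3-like cells of Zfp36l1fl/fl, Zfp36l2fl/fl, CD2cre mice, in which Cre under CD2 regulatory elements recombines both genes in lymphoid cells. Each group had 4 biological replicates. The labels do not divide the DCKO cells into DN3a and DN3b, so DCKO is set against each control stage in turn, and the sources used here do not give the gates of the sort. All 3 groups carry the floxed alleles, and no group carries CD2cre without them.

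Mitosis is driven by the kinase Cdk1 bound to cyclin A or cyclin B, which Cdc25 phosphatases switch on and the anaphase-promoting complex switches off by sending cyclin B and securin to the proteasome. Polo-like and Aurora kinases build the spindle and correct faulty attachments, and the spindle checkpoint holds the anaphase-promoting complex back until every kinetochore is attached. Most of these genes are transcribed late in the cell cycle, through short promoter elements. The MuvB core, with B-Myb and FoxM1, binds the element called the cell cycle genes homology region (TTTGAA or TTCGAA). The factor NF-Y binds CCAAT boxes. In the thymus, DN3a cells are largely resting while they rearrange the T cell receptor beta gene, and cells that pass beta selection divide rapidly as DN3b and later. Zfp36l1 and Zfp36l2 encode RNA-binding proteins that attach to AU-rich messages and promote their decay.

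The promoters show what many of the genes share in sequence. RefSeq promoters (GRCm38.p6, 250 bases before to 50 bases after the start of each gene) were matched for 28 of the 35 genes. TTTGAA or TTCGAA stood on either strand in 20 of the 28 (71.4%), against 19.4% of the 27025 promoters of the table. CCAAT, sought on either strand, stood in 21 of the 28 (75.0%), against 37.9%, and 18 of the 28 (64.3%) held both motifs, against 7.7%. Among promoters of genes with enough reads to be tested, the shares were 13.9%, 39.4% and 6.1% of 9779. In the 100 bases before the start, 5 of the 28 (17.9%) held both motifs, against 1.2% of all promoters. These 5 are shown with Cdc25b, the gene that was lower in DCKO than in DN3b below and whose 100 bases hold a CCAAT box without TTTGAA or TTCGAA. Each runs 5′ to 3′ on the strand of its gene and ends at the base before the start, and capitals mark TTTGAA or TTCGAA and CCAAT or, where the motif is on the other strand, TTCAAA and ATTGG.
Cdk1: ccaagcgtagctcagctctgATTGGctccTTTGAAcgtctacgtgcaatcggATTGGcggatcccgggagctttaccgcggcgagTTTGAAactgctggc
Cdc20: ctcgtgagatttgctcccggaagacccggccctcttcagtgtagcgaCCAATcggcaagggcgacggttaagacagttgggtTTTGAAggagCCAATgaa
Kif11: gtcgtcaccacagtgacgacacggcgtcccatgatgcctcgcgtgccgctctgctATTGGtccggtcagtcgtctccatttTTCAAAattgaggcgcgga
Top2a: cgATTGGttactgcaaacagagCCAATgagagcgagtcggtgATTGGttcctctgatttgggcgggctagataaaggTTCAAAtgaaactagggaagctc
Ube2c: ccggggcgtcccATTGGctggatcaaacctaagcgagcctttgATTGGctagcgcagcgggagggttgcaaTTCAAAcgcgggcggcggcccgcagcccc
Cdc25b: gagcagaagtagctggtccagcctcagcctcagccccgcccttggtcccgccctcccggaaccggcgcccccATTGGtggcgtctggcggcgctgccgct
In GRCm38 the windows lie at chr10:69352913-69353012 (minus strand) for Cdk1, chr4:118437344-118437443 (minus) for Cdc20, chr19:37376282-37376381 (plus) for the spindle motor gene Kif11, chr11:99024190-99024289 (minus) for Top2a, chr2:164769829-164769928 (plus) for Ube2c and chr2:131186848-131186947 (plus) for Cdc25b. The Cdk1 window holds TTTGAA 71 and 15 bases before the start, with CCAAT boxes at 80 and 48 bases before it. In Cdc20 the order is CCAAT at 53, TTTGAA at 18 and a further CCAAT at 8 bases before the start. The Cdc25b promoter holds TTCGAA 8 bases after its start, outside the window shown. A match of letters is a description and shows no binding.

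Libraries held 28479157 to 45975678 counts, and levels are CPM (read counts relative to library size) scaled by TMM factors. The targeted genes followed the labels: Zfp36l1 ranged over 27.1 to 43.9 CPM (DN3a), 9.63 to 23.3 (DN3b) and 1.64 to 3.8 (DCKO), and Zfp36l2 at 341 to 685, 287 to 467 and 45.4 to 87.9. The 10 markers of DN3 pre-T cells (Ptcra, Rag1, Il2ra and others) were present in every library, with a summed level of 9450 to 12100 CPM (DN3a), 5630 to 8830 (DN3b) and 10300 to 14300 (DCKO). Markers of other cells were low: 5 B cell markers summed to at most 1.12 CPM in any library with Pax5 at 0 in DN3b, 6 myeloid markers to 23.5 to 33.8 CPM (DN3a), 4.85 to 13.2 (DN3b) and 11.1 to 22.1 (DCKO) with Mpo at 0 in DN3a, and 6 stromal markers, nearly all Epcam, to 75.4 to 130, 13.5 to 46.8 and 9.47 to 17.5 with Krt5 and Foxn1 at 0 in DN3a. The 4 measured natural killer and gamma-delta T cell markers summed to 64.6 to 86.0, 21.3 to 44.6 and 30.7 to 39.9 CPM with Ncr1 at 0 in DN3b, and 6 markers of CD4 and CD8 expressing thymocytes to 111 to 286, 83.7 to 233 and 214 to 255. The nuclear RNA Malat1 took 0.583% to 0.841% of the counts in DN3a and 0.0987% to 0.241% in the other libraries. A lone feature held 9.02% of the counts of DCKO library 1, where the most abundant feature of any other library held 1.08% to 2.61%. The part of these differences in the results was not tested, and in sorted bulk RNA fewer cells of a type and less RNA per cell cannot be told apart.

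All 35 mitotic genes were higher in DN3b than in DN3a (edgeR's quasi-likelihood test, Benjamini-Hochberg adjusted p from 5.3e-05 to 0.0089), and in none of them did the 4 DN3b libraries overlap the 4 DN3a libraries. The rise ran from 1.97-fold for Kif23 to 7.0-fold for Plk1, with a median of 2.01 on the log2 scale, where the median of all genes was -0.02. These stages differ in much of the transcriptome: 27.4% of the 13944 genes tested were called higher in DN3b, 25.2% lower and 52.6% were called in either direction, and 24.8% were higher in DN3b with no overlap between the groups. The same fit with the replicate number as a block, which pairs the control libraries, gave 35 of 35 higher, with a median of 2.09.

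**Figure D1:**
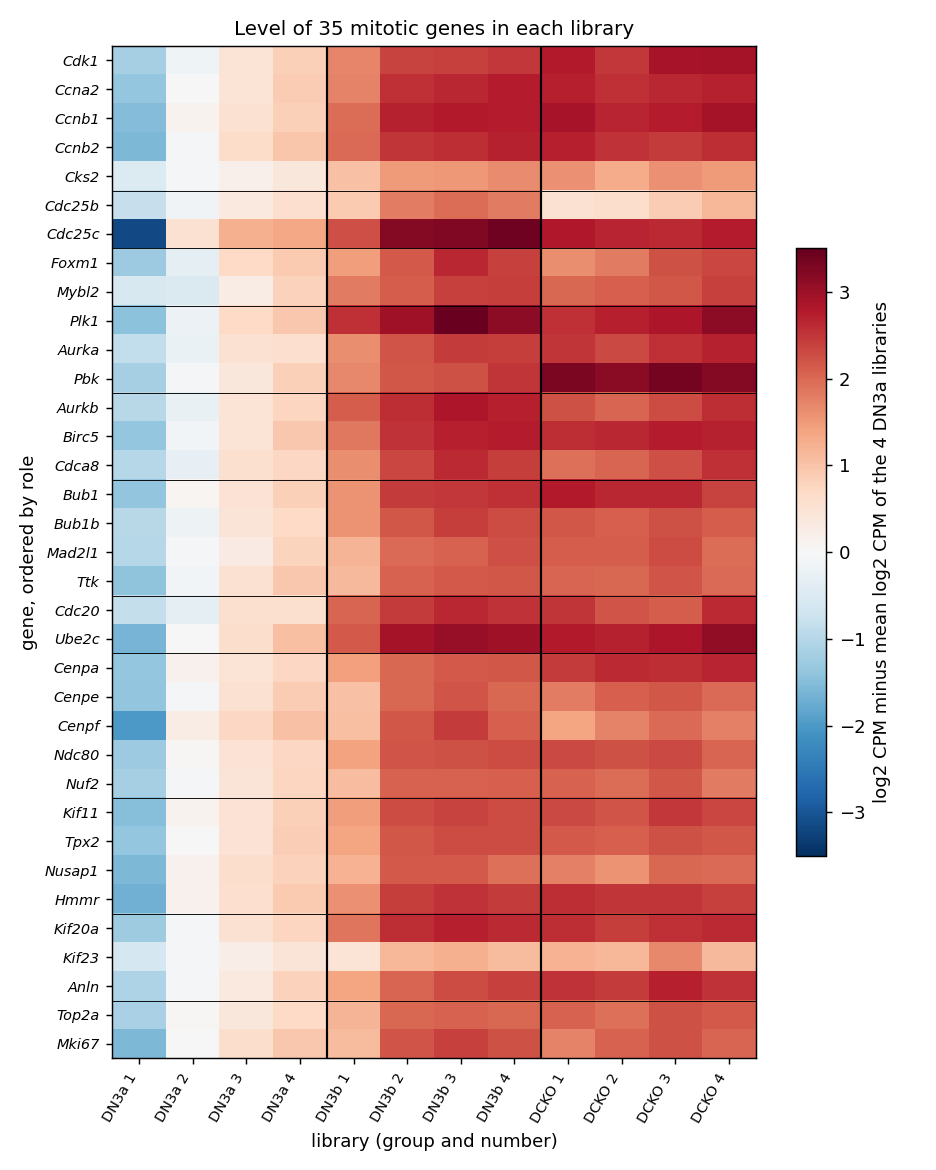
Levels of the 35 mitotic genes in the 12 libraries, as log2 CPM minus the mean of the 4 DN3a libraries of the same gene; rows are genes ordered by role, columns are libraries by group, and colour gives the difference. DN3a library 1 is lowest for 35 of 35 genes within its group, and the DN3b and DCKO libraries lie above every DN3a library except for Cdc25b in DCKO, which overlaps DN3a.

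The kinase Cdk1 and its partners set the scale. Cdk1 (chr10:69335146-69352938, minus strand, GRCm38) measured 17.6, 35.5, 54.9 and 69.7 CPM in DN3a libraries 1 to 4, 128, 203, 208 and 218 in DN3b and 267, 220, 290 and 298 in DCKO. Its DN3a values spread widely while every DN3b library lay above them, and the fitted rise was 4.26-fold (log2 2.09 ± 0.33, SE, adjusted p = 0.00024). Ccnb1, the cyclin B1 that carries Cdk1 into mitosis, measured 12.2, 37.5, 50.3 and 61.9 CPM in DN3a, 134, 224, 236 and 231 in DN3b and 253, 218, 233 and 260 in DCKO. Its 5.09-fold rise in DN3b was the largest of the 5 genes of this role. Cyclin A2 (Ccna2) and cyclin B2 (Ccnb2) rose by 2.27 and 2.19 on the log2 scale, and Cks2, a small subunit bound by Cdk1, by 1.40. Per kilobase of exon, Cks2 was the most abundant of the 5 in every group, at 66.2 CPM in DN3a and 174 in DN3b, and Cdk1 stood at 9.0 and 38.3.

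The phosphatases that remove inhibitory phosphates from Cdk1 were lower in level. Cdc25b measured 11.3, 18.2, 24.8 and 29.5 CPM in DN3a and 37.4, 68.3, 76.2 and 68.9 in DN3b, a 2.99-fold rise (adjusted p = 0.00057). Cdc25c measured 0.325, 4.20, 6.87 and 7.44 CPM in DN3a and 13.7, 26.7, 27.4 and 30.8 in DN3b, a 5.23-fold rise with the largest standard error of the 35 genes (log2 2.39 ± 0.56, adjusted p = 0.0032). DN3a library 1 alone was under 1 CPM for Cdc25c. Foxm1 and Mybl2 (B-Myb), the transcription factors of the late cell cycle programme, rose 3.98-fold and 4.26-fold.

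Among the kinases, Plk1, the polo-like kinase of centrosome maturation and mitotic entry, measured 3.48, 8.08, 15.2 and 17.9 CPM in DN3a and 55, 72.7, 102 and 82.3 in DN3b. The lowest DN3b library was well above the highest DN3a library, and the rise of 7.0-fold (log2 2.81 ± 0.39, adjusted p = 0.00012) was the largest of the 35. The spindle pole kinase Aurka rose 4.28-fold, and Pbk, a kinase active in mitosis, 4.03-fold. Of the chromosomal passenger complex, which corrects attachments and later guides cytokinesis, the kinase Aurkb rose 5.47-fold, survivin (Birc5) 4.86-fold and borealin (Cdca8) 4.4-fold. Aurkb went from 12.2, 20.1, 33.0 and 40.0 CPM in DN3a to 104, 144, 170 and 158 in DN3b.

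The spindle checkpoint genes rose by a median of 1.90 on the log2 scale: the kinases Bub1 (4.30-fold) and Ttk (3.25-fold), the Cdc20 inhibitor BubR1 (Bub1b, 4.04-fold) and Mad2 (Mad2l1, 3.46-fold). For the anaphase-promoting complex the 35 hold 2 genes, its activator Cdc20 (4.95-fold) and its ubiquitin-conjugating enzyme Ube2c (5.69-fold), with a median of 2.41. A further list of 17 genes of the complex, given below, had a median of 0.42, with 11 called higher. Cdc20 had the smallest adjusted p of the 35, 5.3e-05, with 16, 23, 42 and 42.3 CPM in DN3a and 117, 154, 176 and 164 in DN3b. Whether the roles differed from each other was not tested.

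Kinetochore and centromere genes rose by a median of 1.72 on the log2 scale. They were the centromeric histone Cenpa (3.46-fold), the kinesin Cenpe (3.16-fold), Cenpf (3.19-fold) and the microtubule-binding Ndc80 and Nuf2 (3.72-fold and 3.29-fold). Cenpf had the largest adjusted p of the 35, 0.0089, with 11.9, 57.3, 79.2 and 97.1 CPM in DN3a and 99.9, 218, 260 and 205 in DN3b, so that DN3b library 1 was only just above DN3a library 4. The spindle genes Kif11 (the motor that separates the poles), Tpx2 (activator of Aurora A), Nusap1 and Hmmr rose by a median of 1.89, and the cytokinesis genes Kif20a, Kif23 and Anln by 2.30, 0.98 and 1.93. Kif23, a motor of the central spindle, had the smallest rise, from 38.8, 56.3, 69.0 and 80.2 CPM to 82.0, 132, 140 and 127. The DNA-untangling enzyme Top2a rose 3.30-fold and the proliferation marker Mki67, which coats mitotic chromosomes, 3.49-fold.

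The libraries of DN3a were far less alike for these genes than those of the other groups. The highest DN3a library exceeded the lowest by a median of 4.23 times over the 35 genes (range 1.84 to 22.9), against 1.86 times in DN3b (1.5 to 2.6) and 1.26 times in DCKO (1.09 to 1.63). DN3a library 1 was the lowest of its group and library 4 the highest for 35 of 35 genes, and DN3b library 1 was the lowest of its group for 35 of 35. The median SD of log2 CPM over the mitotic genes was 0.93 in DN3a, 0.42 in DN3b and 0.14 in DCKO, against 0.23, 0.25 and 0.23 over all genes tested. In DCKO no library held the lowest place for more than 15 of the 35 genes.

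**Figure D2:**
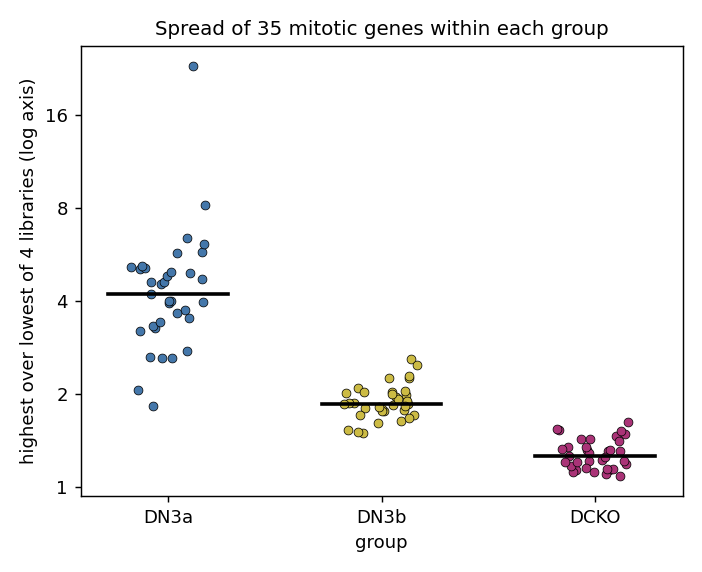
Spread of the 35 mitotic genes within each group, as the highest library divided by the lowest on a log axis, 1 point per gene with the median marked. The medians fall from 4.23 in DN3a to 1.86 in DN3b and 1.26 in DCKO.

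Taken as the median over the 35 genes relative to the DN3a mean, the libraries stood at -1.27, -0.05, 0.51 and 0.82 on the log2 scale in DN3a, at 1.58, 2.19, 2.41 and 2.39 in DN3b and at 2.31, 2.20, 2.29 and 2.39 in DCKO. The 35 genes took 0.0962% to 0.369% of a DN3a library's counts, 0.518% to 0.953% of a DN3b library's and 0.716% to 0.913% of a DCKO library's. A list of 30 G1 and S phase genes ran alongside, at -0.38, -0.19, 0.12 and 0.41 in DN3a, 1.18, 1.52, 1.75 and 1.75 in DN3b and 1.55, 1.51, 1.53 and 1.57 in DCKO. Within DN3a both lists were lowest in library 1 and highest in library 4, and the mitotic genes covered the wider range. Between DN3b and DN3a libraries of the same number, the median difference of the mitotic genes was 2.85, 2.25, 1.89 and 1.57 for numbers 1 to 4.

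**Figure D3:**
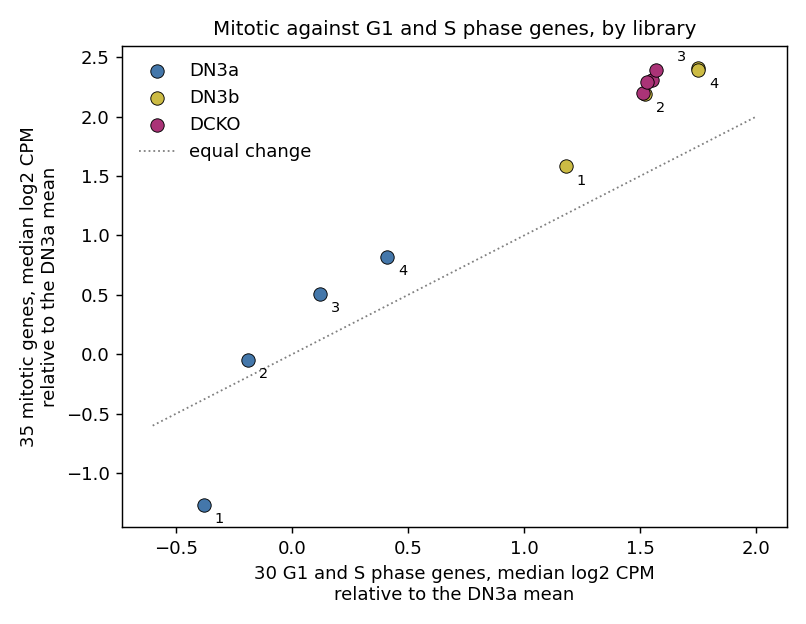
Median log2 level over the 35 mitotic genes and over the 30 G1 and S phase genes in each library, relative to the DN3a mean; each point is 1 library. The mitotic genes reach 2.20 to 2.39 in DCKO and 1.58 to 2.41 in DN3b, and DN3a runs from -1.27 to 0.82.

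In DCKO, too, all 35 mitotic genes were higher than in DN3a, with 34 showing no overlap between the groups. The rise ran from 1.66-fold for Cdc25b (adjusted p = 0.036) to 8.49-fold for Pbk (1e-05), and the median was 2.06 on the log2 scale against -0.04 for all genes. Of all genes tested, 30.7% were called higher in DCKO than in DN3a, 29.5% lower, 60.2% were called in either direction, and 27.8% were higher with no overlap. This comparison and that of DN3b with DN3a share the DN3a libraries, so their values are set side by side and their likeness is no result. Ccnb1 was 5.95-fold higher in DCKO and 5.09-fold higher in DN3b, Plk1 5.95-fold and 7.0-fold, Top2a 3.88-fold and 3.30-fold, and Mki67 3.40-fold and 3.49-fold. The call of Cdc25b rested on single libraries: leaving out DN3a 1 or 2, DN3b 2, or DCKO 3 or 4 gave adjusted p of 0.0533 to 0.095, and upper quartile scaling gave 0.119.

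Against DN3b, 1 of the 35 mitotic genes was higher in DCKO (Pbk), 1 was lower (Cdc25b) and 33 did not pass, the smallest adjusted p among those being 0.19. That is 5.71% of the mitotic genes, where 18.9% of all genes tested were called (10.3% higher and 8.58% lower). No further member passed at an unadjusted p of 0.05. Log2 differences were above 0 for 24 genes and below 0 for 11, with a median of 0.12, and standard errors ran from 0.17 to 0.52. The median standard error was 0.32, where DN3b against DN3a had 0.33. Each gene's spread was estimated over all 12 libraries, so the wide DN3a spread of the mitotic genes enters these errors and intervals. In DN3a their median SD of log2 CPM was 0.93, against 0.23 for all genes, so the 2 shares called compare genes of unlike spread. For 23 genes the 95% interval of the difference lay within 1 log2 unit of 0 on either side, and for the other 12, Pbk and Cdc25b among them, it reached beyond.

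DCKO and DN3b also differed in markers of stage, so genotype and stage cannot be told apart in this comparison. Of the 10 DN3 pre-T cell markers 3 were higher in DCKO: the recombinase genes Rag1 (4.33-fold, adjusted p = 0.0019) and Rag2 (2.44-fold, 0.0061) and the receptor subunit Cd3g (2.40-fold, 0.00029). Rag2 had a mean of 172 CPM in DCKO, 70.5 in DN3b and 177 in DN3a, and Cd3g of 1851, 771 and 1758. The other markers of that list were not called. Il2ra was among these (adjusted p = 0.14), with a mean of 225 CPM in DCKO, 142 in DN3b and 654 in DN3a. Against DN3a, 1 of the 10 was higher in DCKO (Rag1) and 1 lower (Il2ra, 2.91-fold, adjusted p = 0.00078). Of the 6 markers of CD4 and CD8 expressing thymocytes 2 were lower in DCKO than in DN3b: the receptor alpha constant gene Trac (12.9-fold, adjusted p = 0.0027, with a mean of 0.155 CPM in DCKO and 2.04 in DN3b) and Cd8b1 (3.05-fold, 0.016). Cd8b1 had a mean of 6.14 CPM in DCKO, 18.7 in DN3b and 0.453 in DN3a. Cd8a, at 2.81, 3.44 and 0.428 CPM in the same order, was not called against DN3b (adjusted p = 0.58). The part of these differences in the mitotic genes was not tested.

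**Figure D4:**
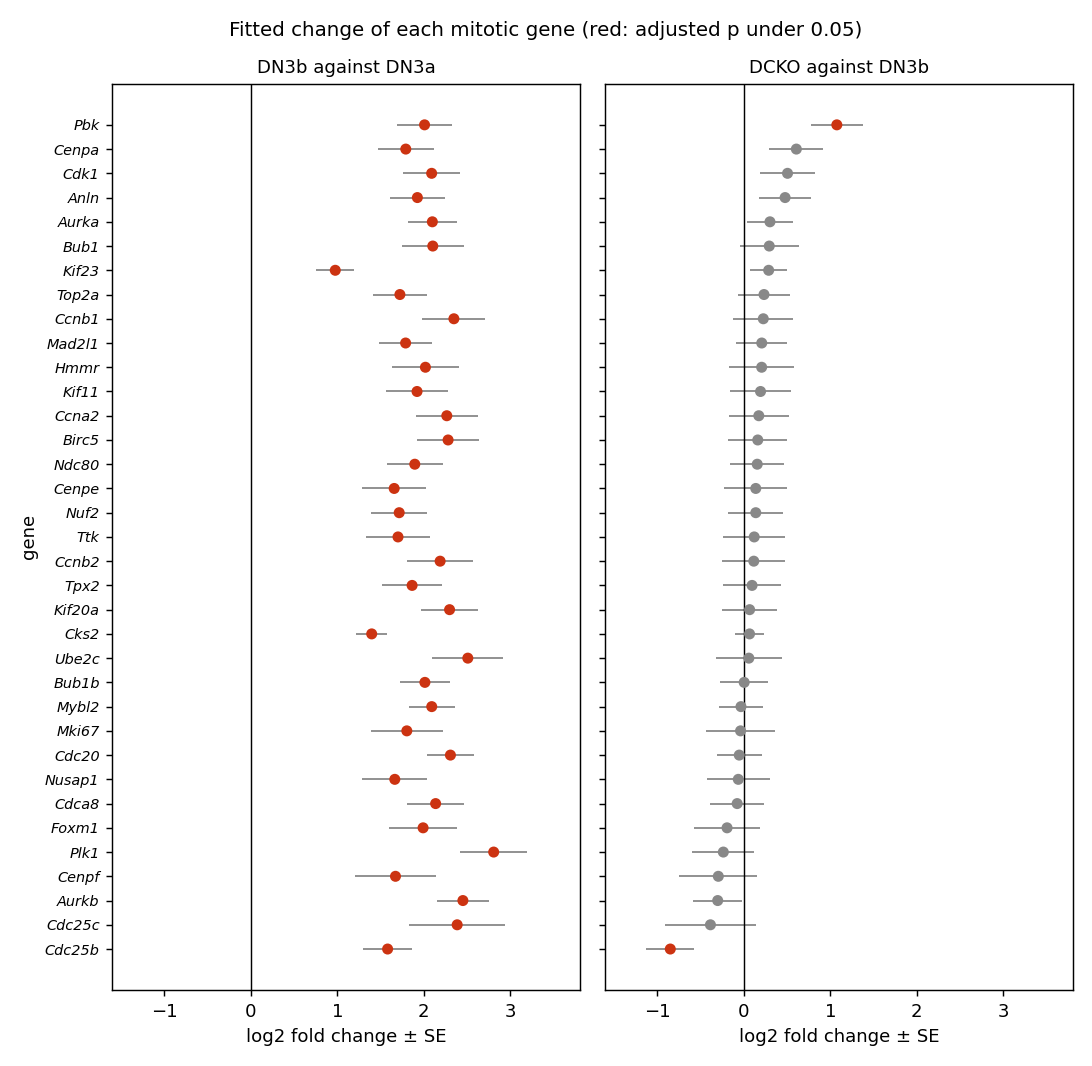
Log2 differences ± SE of the 35 mitotic genes in DN3b against DN3a and in DCKO against DN3b, with called genes in red. In the last comparison the points lie between -0.85 (Cdc25b) and 1.08 (Pbk), with 33 of 35 genes not called.

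Pbk (PDZ-binding kinase, also called TOPK, chr14:65805837-65817822, plus strand) measured 12.7, 27.4, 37.6 and 50.9 CPM in DN3a, 92.0, 129, 134 and 163 in DN3b and 281, 255, 289 and 267 in DCKO. Every DCKO library was above every DN3b library, and the DCKO libraries lay close together. The difference from DN3b was 2.11-fold (log2 1.08 ± 0.30, adjusted p = 0.027). Per kilobase of exon its level was 72.2 CPM in DN3b and 152 in DCKO, where among the mitotic genes only Cks2 (182) and Top2a (228) were higher. The call was made in 13 of 20 alternative settings. It was lost when any of DN3b 1, 2 or 3 or DCKO 1, 2 or 3 was left out (log2 0.94 to 1.09, adjusted p 0.0554 to 0.0693).

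Cdc25b (chr2:131186949-131198497, plus strand), the phosphatase that starts Cdk1 activation at the centrosome, went the other way. It measured 28.6, 30.2, 36.7 and 43.7 CPM in DCKO against 37.4, 68.3, 76.2 and 68.9 in DN3b. The groups overlapped through DN3b library 1, which lay below the highest DCKO library, and the highest DN3a value, 29.5 CPM, lay between the 2 lowest DCKO values. The level was 1.80-fold lower in DCKO (log2 -0.85 ± 0.28, adjusted p = 0.048). This call was made in 10 of 20 settings. It was lost with limma-voom (adjusted p = 0.0505) and without DN3a 2 or 3, DN3b 2, 3 or 4, or DCKO 1, 2 or 3 (0.0591 to 0.124). The annotation places Spef1 on the opposite strand over Cdc25b, and the sources used here do not say whether strand was used in counting.

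**Figure D5:**
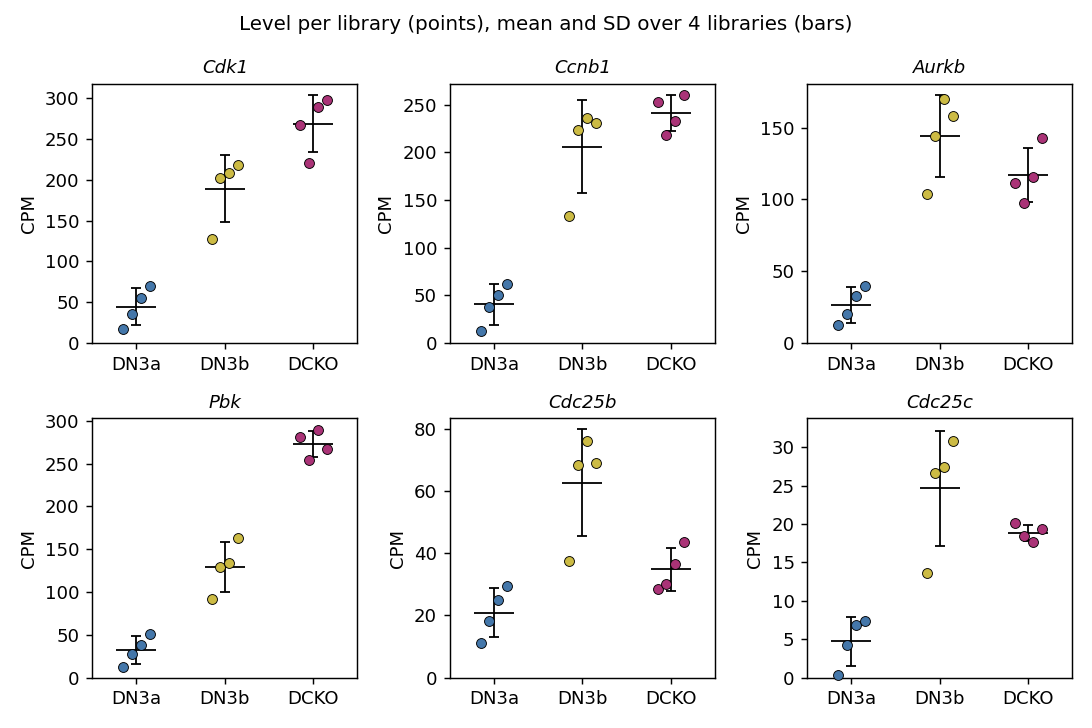
CPM of 6 mitotic genes in each of the 12 libraries, 1 point per library, with the group mean as a line and the SD as bars. Pbk is at 255 to 289 CPM in DCKO and 92.0 to 163 in DN3b, and Cdc25b at 28.6 to 43.7 in DCKO and 37.4 to 76.2 in DN3b.

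Besides Pbk, 3 genes had no overlap between DCKO and DN3b without passing the test, 4 of 35 in all, where 20.9% of all genes tested did not overlap. Cenpa measured 103, 114, 113 and 120 CPM in DCKO and 51.0, 75.6, 83.9 and 85.1 in DN3b (log2 0.61 ± 0.31, adjusted p = 0.19). Cdk1 (0.51 ± 0.31, 0.28) and the contractile ring protein Anln (0.48 ± 0.30, 0.29) were the others, each with the DCKO libraries on the higher side. Cenpa passed in 2 of 20 settings, with the 8 libraries of the comparison alone (adjusted p = 0.0267) and without DN3a 1 (0.0207). Aurkb measured 111, 97.8, 115 and 143 CPM in DCKO and 104, 144, 170 and 158 in DN3b (-0.30 ± 0.29, adjusted p = 0.49), and Cdc25c 20.1, 18.4, 17.6 and 19.3 against 13.7, 26.7, 27.4 and 30.8 (-0.38 ± 0.52, 0.64). For both, DN3b library 1 fell among or below the DCKO values while DN3b 2, 3 and 4 lay above the highest DCKO value.

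A level relative to the median of the 35 mitotic genes in the same library describes the mix of mitotic RNAs apart from its total. On that scale 27 genes overlapped between DCKO and DN3b, 4 were higher in DCKO and 4 lower. Non-overlap on this scale was found for 15.1% of all genes tested, 1.84% higher and 13.3% lower. The higher 4 were Pbk (by 0.95 log2 units), Cenpa (0.41), Anln (0.38) and Cdk1 (0.33). The lower 4 were Cdc25b (-1.05), Aurkb (-0.56), Cdc25c (-0.55) and Bub1b (-0.16). For Pbk the relative level was 0.01, -0.19, -0.27 and 0.07 in DN3b and 0.96, 0.82, 0.81 and 0.83 in DCKO, and for Cdc25b -1.30, -1.10, -1.08 and -1.22 against -2.45, -2.38, -2.21 and -1.84. With DN3b library 1 scaled in this way, it stood with the other DN3b libraries for both genes. This scale was chosen after the levels were seen, and no test was made on it.

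Other genes of mitosis, 108 in 6 lists by function, gave the setting for the 35, with 107 measured well enough to be tested. In DN3b against DN3a 92 were higher and 1 lower, and in DCKO against DN3a 95 were higher and 2 lower. By list, 34 of 37 kinetochore and centromere genes, 21 of 23 spindle motor and cytokinesis genes, 11 of 12 genes of condensin and cohesin release, 11 of 17 of the anaphase-promoting complex, 12 of 13 tested Cdk1 regulators and 3 of 5 of the MuvB core were higher in DN3b. The list medians on the log2 scale were 1.57, 1.71, 1.62, 0.42, 1.92 and 0.47. The lower gene was Ensa, an inhibitor of the phosphatase PP2A-B55, at -0.34 ± 0.08 in DN3b (adjusted p = 0.0035) and -0.42 ± 0.08 in DCKO (0.00063), and in DCKO the MuvB subunit Lin37 was lower too (-0.36 ± 0.15, 0.049).

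In DCKO against DN3b 7 of the 107 were higher and 0 lower by edgeR, with a median of 0.10, where 10.3% of all genes tested were called higher. At an unadjusted p of 0.05 the counts were 12 and 0, and DESeq2 and limma-voom each called 7. Ube2s, the enzyme that lengthens ubiquitin chains on substrates of the anaphase-promoting complex, measured 536, 462, 468 and 607 CPM in DCKO, 231, 218, 265 and 249 in DN3b and 76.4, 57.1, 93.0 and 89.8 in DN3a. Every DCKO library was above every DN3b library, and the difference was 2.15-fold (log2 1.11 ± 0.15, adjusted p = 0.00035). Ska2, a subunit of the complex that couples kinetochores to microtubules, measured 169, 161, 198 and 170 CPM in DCKO, 59.3, 84.0, 85.3 and 90.8 in DN3b and 29.4, 46.1, 47.5 and 53.8 in DN3a. Its groups did not overlap either, at 2.19-fold (1.13 ± 0.18, 0.0009). The MuvB subunit Lin52 measured 28.5, 28.6, 29.6 and 25.1 CPM in DCKO against 18, 17, 18.5 and 20.4 in DN3b (0.60 ± 0.11, 0.0021), while DN3b against DN3a gave 0.02 ± 0.11 and was not called (0.89). These 3 calls held in 20 of 20 settings.

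The MuvB subunit Lin9 (log2 0.55 ± 0.14, adjusted p = 0.014), the anaphase-promoting complex subunit Cdc27 (0.50 ± 0.14, 0.021), the centromere protein Cenpq (0.51 ± 0.15, 0.031) and the condensin subunit Ncapd3 (0.35 ± 0.11, 0.037) were the other 4 higher in DCKO, in 17, 14, 12 and 9 of 20 settings. The condensin subunit Smc4 was next in its list (0.35 ± 0.14, adjusted p = 0.092). Of the 23 spindle motor and cytokinesis genes none was called and none reached an unadjusted p of 0.05, the smallest adjusted p being those of Numa1 (-0.27, 0.20) and Ckap5 (0.25, 0.27). Of the 13 Cdk1 regulators none was called and 1 reached an unadjusted p of 0.05. The smallest adjusted p there were those of Arpp19, a relative of Ensa (0.28, 0.12), and the inhibitory Cdk1 kinase Pkmyt1 (-0.44, 0.21). All 30 G1 and S phase genes were higher in DN3b than in DN3a and in DCKO than in DN3a, and 2 of the 30 were higher in DCKO than in DN3b. These were cyclin E2 (Ccne2, 2.56-fold, adjusted p = 0.0048) and the replication licensing factor Cdc6 (1.67-fold, 0.045). Of all genes tested, 27.4%, 30.7% and 10.3% were called higher in these comparisons, in the same order.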

How the data were processed

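Sorted pre-T cell RNA was made into stranded total RNA libraries after ribosomal RNA removal, per the labels' protocols. Named in the submitters' processing notes, with no role given, are the build GRCm38 and TopHat2 2.0.12, Trim Galore, DESeq2 1.6.3 and HTSeq. Neither strand setting nor annotation release of the counting is given here, and overlapping genes may share reads: 19 of the 35 mitotic genes are overlapped by another gene in GENCODE M21, 13 on the opposite strand. The raw count of each Ensembl gene in each library was deposited by the authors and is the only unit used; their other tables were not used. Symbols from GENCODE M21 (GRCm38) matched 42462 of 43629 genes.

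The filterByExpr function of edgeR (count minimum 10) left 13944 genes, all 35 mitotic genes among them. A joint edgeR quasi-likelihood model was fitted to the 12 libraries, with TMM factors and a term for group (R 4.3.3, edgeR 4.0.16, limma 3.58.1, 9 residual degrees of freedom). Tests were two-sided, with Benjamini-Hochberg adjustment over all genes tested and a threshold of 0.05. The standard error is the size of the log2 difference over the square root of F, intervals are 95%, and folds are antilogs of fitted log2 differences. Means are over 4 libraries a group, and standard errors come from the joint fit to the 12 libraries. The fit was also run on simulated counts with the same dispersion for all genes and groups. The spread of the mitotic genes differed between groups, so that run does not show how the fit does for them. Alternatives were DESeq2 1.42.0, limma-voom, upper quartile scaling, other count filters, the compared libraries alone, a replicate block, and leaving out libraries.

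Replicates always differed by more than counting noise (lowest chi-square 30.9 per degree of freedom). Control libraries of the same number deviated together (correlations 0.44, 0.56, 0.35 and 0.52 for numbers 1 to 4), so DN3a and DN3b were treated as paired in the block fits. The labels call the replicates biological without naming animals, so p-values judge group differences against the spread between these samples. PCR copies are not separated from molecules. Depth here makes counting error small next to that spread for well-counted genes. It weighs more at low levels, such as 0.325 CPM for Cdc25c in DN3a library 1.

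The 35 genes and the other lists were chosen with earlier results of these data known. Named genes are all 35, the 2 genes of each further cell cycle list with the smallest adjusted p in DCKO against DN3b, each gene called there in lists with 5 or fewer calls, and Zfp36l1 and Zfp36l2. Ensa, Lin37 and the markers of stage set beside DCKO against DN3b were named after their values were seen. Of 5 erythroid markers, the summed level was 2.28 to 22.9 CPM over all libraries. Promoter sequences are from RefSeq (GRCm38.p6) and 3′ UTRs from GENCODE M21. Motifs were sought as exact letters on both strands in promoters and on the transcript strand in 3′ UTRs.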

Additional observations from a re-analysis of the deposited data

Results flagged for a closer look

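In groups of 4, a library was singled out where its gap to the nearest other exceeded Dixon's 95% critical value as a share of the group's range, which chance does in about 1 in 20 groups. Of 111 groups checked, 11 were singled out, and 9 of these were single genes in DN3b with library 1 the lowest. They were Ccnb1 (134 CPM, next 224), Bub1 (87.0, next 157), Ttk (31.3, next 58.9), Ndc80 (54.2, next 92.6), Nuf2 (44.9, next 88.6), Kif11 (316, next 551), Tpx2 (163, next 278), Hmmr (85.1, next 151) and Top2a (1103, next 1925). DN3b library 1 also stood apart in the median of the mitotic genes relative to the G1 and S phase genes, at 0.40 log2 units with the next library at 0.64. These genes vary together within a library, so the 9 are not 9 separate events. In DCKO, Kif23 stood out for its highest library, number 3, at 187 CPM with the next at 136.

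The same DN3b library 1 had the highest summed level of DN3 pre-T cell markers in its group (8830 CPM, against 5630 to 6590), of markers of CD4 and CD8 expressing thymocytes (233, against 83.7 to 145), of myeloid (13.2, against 4.85 to 10.1), stromal (46.8, against 13.5 to 23.4), natural killer and gamma-delta T cell (44.6, against 21.3 to 28) and erythroid markers (22.9, against 2.28 to 4.35), and their part in its low mitotic levels was not tested. Without DN3b library 1, all 35 mitotic genes were still called higher in DN3b than in DN3a.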

How the results depend on the processing

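All 35 mitotic genes were called higher in DN3b than in DN3a in each of 21 alternative settings, and 34 or 35 in DCKO than in DN3a in each of 20. In DCKO against DN3b the count of called mitotic genes, 2, was 1 with limma-voom and 0 to 3 when libraries were left out (0 without DN3b 2, DN3b 3, DCKO 1, DCKO 2 or DCKO 3, and 0 without DCKO 1 and 2 together). The count of further mitotic genes, 7, ran from 3 to 9, at 3 without DCKO 1 or DCKO 3, 3 without DCKO 1 and 2 together, and 4 without DN3b 2, DN3b 3 or DCKO 2. Over the 20 settings of that comparison, an uncalled mitotic gene changed sign 40 times, counting each gene in each setting, and no called gene reversed. Cenpf in DCKO against DN3a was not called without DCKO 1 and 2 together (adjusted p = 0.051), and Cdc25c there went from 2.0 to 2.63 on the log2 scale with limma-voom. The cause of these changes was not tested.

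With the replicate block, the mitotic genes called were 35, 35 and 2 in the 3 comparisons (medians 2.09, 2.26 and 0.22), and no call among them changed. DCKO libraries shared only a number with the controls: their correlations with same-numbered libraries ran from -0.26 to 0.12. Under upper quartile scaling the median of all genes was -0.17, -0.26 and -0.10 in DN3b against DN3a, DCKO against DN3a and DCKO against DN3b, and split the calls into 3021 higher and 4536 lower (3815 and 3519 with TMM), 3119 and 5528 (4275 and 4116), and 1051 and 1644 (1438 and 1197). Under that scaling the mean of the libraries' medians went from 2.30 to 2.07 in DCKO and from 2.14 to 2.0 in DN3b, and relative to the G1 and S phase genes the means were 0.76 and 0.59. In the 100 bases before the start, the share of promoters with TTTGAA or TTCGAA was 21.4% instead of 71.4%, and with both motifs 17.9% instead of 64.3%, in a window of fewer bases. Summed over the 4 libraries of a group, reads of a mitotic gene came to 755 or more in DN3a and 2440 or more in DCKO, both for Cdc25c, whose standard error in DN3b against DN3a was 0.56.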

Other observations

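The proteins encoded by Zfp36l1 and Zfp36l2 bind the RNA letters UAUUUAU, and the presence of these letters in the mitotic messages was examined after the levels had been seen. In 1 annotated 3′ UTR per gene, TATTTAT stood in 8 of the 35 mitotic genes (22.9%), against 27.7% of 11727 tested protein-coding genes. The mitotic genes had shorter 3′ UTRs, with a median of 600 bases against 997, and 0.317 sites per kilobase against 0.286. The longer form TTATTTATT stood in Ccnb1 and Cenpe, 5.7% of the mitotic genes against 7.2% of all. Their sites are shown in 27 bases with TATTTAT in capitals, on the transcript strand.
Ccnb1: tttatgtaatTATTTATttgttcttaa
Cenpe: aactgttaatTATTTATttttatacat
Neither Pbk, which was higher in DCKO than in DN3b, nor Cdc25b, which was lower, held TATTTAT in the annotated 3′ UTR. The median log2 difference of DCKO from DN3b was 0.19 for the 8 mitotic genes with TATTTAT and 0.07 for those without, and over all tested protein-coding genes 0.16 and -0.07. No test was made of these medians, and a letter match is no evidence of binding.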
